A study of Homo sapiens with 12 samples.

Results

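Lipocalin-2 (LCN2) and 8 other genes of the epithelial inflammatory response were examined in RNA recovered by immunoprecipitation: SAA1, SAA2, C3, CFB, ICAM1, SOD2, PTGS2 and IER3. They were selected by a rule on Ensembl identifiers that uses no measured value, but the choice was made with earlier results of these data known. They make up 9 of the 60708 deposited features. SOD2 was present under ENSG00000112096, and its alternative identifier ENSG00000291237 matched 0 features. The 12 libraries came from HK2, an immortalised human proximal tubule epithelial line, and fell into 4 groups of 3. FLAG IL-17 was precipitated with anti-FLAG after IL-17 at 200 ng/mL, FLAG medium with anti-FLAG after medium alone, IgG IL-17 with mouse IgG1 after IL-17, and IgG medium with mouse IgG1 after medium alone. The exposure was 3 h in all groups. Every group, the IgG ones included, had received 10 µg of plasmid encoding FLAG-hArid5a, so the design holds no untransfected cells and Arid5a binding is read only from the contrast of the antibodies. Input RNA was not analysed here.

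IL-17 is a T cell cytokine that acts on epithelial cells through NF-kappaB, C/EBP and I-kappaB-zeta transcription factors, and it also prolongs the life of some short-lived inflammatory mRNAs. Arid5a is a nucleic acid binding protein; in mouse cells it is known to bind and stabilise inflammatory transcripts such as that of Il6. The 9 genes are antimicrobial, acute phase, complement, adhesion, antioxidant, prostaglandin and survival effectors, several of them textbook IL-17 or NF-kappaB responses. In a precipitate, the level of a transcript depends on its abundance in the cells as well as on its recovery, and fewer cells containing a transcript cannot be told apart from less of it per cell.

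Total estimated counts ran from 5365500 to 17723100 in the 6 IL-17 libraries and from 746911 to 7563480 in the 6 medium libraries, so depth and treatment were not independent. Within the 740000 counts used as an equal depth, FLAG medium replicate 1, IgG IL-17 replicate 1 and IgG medium replicate 2 held 25373 to 32398 features, and the other 9 libraries 10594 to 21424. These 3 libraries are called feature-rich here, and results that moved with them are also given without them. IgG medium replicate 1 was the shallowest library. Whether replicates were separate cultures is not stated, so the p-values describe the spread between these libraries, which may be technical. The deposited files carry no gene names, and the reference table pairs 0 Ensembl identifiers with symbols. Kidney epithelial markers and other IL-17 pathway genes were therefore not analysed here, and the cell line was not checked against markers.

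The members lay on 5 chromosomes of GRCh38 (RefSeq coordinates, GRCh38.p14), all as protein-coding genes. LCN2 (ENSG00000148346) spans chr9:128149453-128153453. The neighbouring serum amyloid genes SAA2 (ENSG00000134339) and SAA1 (ENSG00000173432) span chr11:18238236-18248668 and chr11:18266264-18269967. C3 (ENSG00000125730) and ICAM1 (ENSG00000090339) are on chromosome 19, at chr19:6677704-6720650 and chr19:10271120-10286615. IER3 (ENSG00000137331), CFB (ENSG00000243649) and SOD2 (ENSG00000112096) are on chromosome 6, at chr6:30743199-30744547, chr6:31946095-31952084 and chr6:159669069-159762281. PTGS2 (ENSG00000073756) spans chr1:186671791-186680423.

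The members separated into 5 that were recovered in every library and 4 that were near the limit of detection. By median TPM (a level per transcript length, scaled to the same sum in every library) over the 12 libraries, IER3 stood at 13.4, SOD2 at 10.1, ICAM1 at 4.70, C3 at 2.51 and CFB at 1.49. LCN2 had a median of 0.125 TPM, SAA2 0.03, SAA1 0.015 and PTGS2 0.01. Within libraries SOD2 exceeded ICAM1 in 12 of 12 and CFB exceeded LCN2 in 12 of 12. The other neighbours in this order were not separated in every library: IER3 exceeded SOD2 in 10 of 12, ICAM1 exceeded C3 in 9 and C3 exceeded CFB in 10. Among the scarce members LCN2 exceeded SAA2 in 7 libraries, SAA2 exceeded SAA1 in 4 and SAA1 exceeded PTGS2 in 5. The 5 abundant members passed the filter on low counts and were tested across all 24040 features that passed. LCN2, SAA1, SAA2 and PTGS2 did not pass, and were compared one by one.

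LCN2, a secreted siderophore-binding protein that is also a marker of tubular injury, was found at 2 to 19 counts where it was found at all. FLAG IL-17 libraries held 18, 10 and 7 counts of LCN2 (replicates 1, 2 and 3), and FLAG medium libraries 7, 0 and 0. IgG IL-17 libraries held 9, 11 and 19 counts of LCN2, and IgG medium libraries 0, 0 and 2. LCN2 was thus detected in 6 of 6 IL-17 libraries and in 2 of 6 medium libraries, which were shallower. Scaled to depth, LCN2 stood at 1.02, 0.732 and 0.397 CPM (counts scaled to equal library totals) in FLAG IL-17 and at 1.68, 1.06 and 1.2 CPM in IgG IL-17. Counts of 0 allow up to 0.397 and 0.475 CPM in FLAG medium replicates 2 and 3, and 0.490 CPM in IgG medium replicate 2, from a floor of 3 counts. The single highest LCN2 level of all 12 libraries was in medium, 2.91 CPM from 7 counts in FLAG medium replicate 1, a feature-rich library. Intervals and floors here cover counting error only.

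Summed over libraries, LCN2 stood at 0.918 CPM with IL-17 (74 counts, exact Poisson 95% interval 0.721 to 1.15) and at 0.334 CPM in medium (9 counts, 0.153 to 0.634). Without FLAG medium replicate 1, FLAG medium held 0 LCN2 counts, which allows up to 0.216 CPM over both remaining libraries, against 0.714 CPM over the 3 FLAG IL-17 libraries. Without all 3 feature-rich libraries LCN2 stood at 0.864 CPM with IL-17 (65 counts, 0.667 to 1.10) and at 0.109 CPM in medium (2 counts, 0.0131 to 0.392). Over single libraries this did not pass a test. The mean difference of LCN2 in log2(TPM + 1) for IL-17 minus medium was -0.06 (6 against 6 libraries, exact two-sided permutation within antibody, p = 0.995), with means of 0.243 in IL-17 libraries and 0.306 in medium libraries. On log2(CPM + 1) it was 0.55, of the other sign (exact permutation p = 0.175), and without the 3 feature-rich libraries it was 0.13 on log2(TPM + 1) (exact permutation p = 0.0833, where the smallest possible was 0.0333). With IL-17, every IgG library was above every FLAG library for LCN2 in CPM, the closest being 1.06 in IgG and 1.02 in FLAG. Of the 24040 features that passed the filter, 2786 lay lower in FLAG in the same way. In TPM the FLAG and IgG libraries overlapped for LCN2 under both treatments. Its mean log2(TPM + 1) was 0.346 in FLAG and 0.202 in IgG (exact permutation within treatment, p = 0.94). That order rested on FLAG medium replicate 1 at 2.10 TPM: without the feature-rich libraries the means were 0.0892 in FLAG and 0.154 in IgG, a difference of -0.08 (exact permutation p = 0.25). The tests on log2(TPM + 1) over all 12 libraries numbered 8, 2 for each scarce member, and their smallest possible p was 0.005.

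SAA1 and SAA2 encode near-identical acute phase apolipoproteins. SAA1 had 0, 3 and 3 counts in FLAG IL-17 and 1, 0 and 0 counts in FLAG medium. In IgG IL-17 it had 3, 3 and 9 counts, and in IgG medium 0 in each library. SAA1 therefore had 21 counts in 5 of 6 IL-17 libraries and 1 count in 1 of 6 medium libraries, or 0.261 CPM (0.161 to 0.398) against 0.0371 CPM (0.000939 to 0.207). Its log2(TPM + 1) difference for IL-17 minus medium was 0.04 (6 against 6, exact permutation p = 0.53), and 0.28 on log2(CPM + 1) (exact permutation p = 0.065). Without the feature-rich libraries the medium libraries held 0 SAA1 counts, which allows up to 0.163 CPM, against 0.239 CPM with IL-17, and the log2(TPM + 1) difference was 0.07 (exact permutation p = 0.0667). FLAG libraries together held 0.107 CPM of SAA1 (0.0431 to 0.221) and IgG libraries 0.355 CPM (0.199 to 0.586). With IL-17 every IgG library was above every FLAG library, the closest being 0.290 and 0.220 CPM, each from 3 counts. Of the 24040 features that passed the filter, 2786 lay lower in FLAG in the same way. The log2(TPM + 1) difference of SAA1, FLAG minus IgG, was -0.0078 (exact permutation within treatment, p = 0.9).

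SAA2 had 9, 3 and 13 counts in FLAG IL-17 and 1, 0 and 0 in FLAG medium. IgG IL-17 libraries held 10, 0 and 5 counts of SAA2, and IgG medium libraries 0, 11 and 0. The 11 counts lay in IgG medium replicate 2, a feature-rich library, so treatments overlapped in the IgG precipitates. SAA2 stood at 0.496 CPM with IL-17 (0.355 to 0.676) and 0.445 CPM in medium (0.230 to 0.778). All 12 medium counts were in feature-rich libraries. Without IgG medium replicate 2, SAA2 in medium stood at 0.048 CPM from 1 count (0.00122 to 0.267). Without all 3 it had 0 counts in medium, which allows up to 0.163 CPM, against 0.399 CPM with IL-17 (0.269 to 0.569). The log2(TPM + 1) difference of SAA2, IL-17 minus medium, was -0.03 (6 against 6, exact permutation p = 0.955), and 0.05 without the feature-rich libraries (exact permutation p = 0.1). Over all libraries it was of the other sign on log2(CPM + 1), 0.27 (exact permutation p = 0.415), and on log2(TPM + 0.1), 0.12 (exact permutation p = 0.82). For FLAG minus IgG the log2(TPM + 1) difference of SAA2 was -0.14 (exact permutation p = 0.5), and 0.03 without the feature-rich libraries (exact permutation p = 0.3). In FLAG IL-17 replicates 2 and 3 the estimated counts were 2.52 and 3.19 for SAA1 and 3.48 and 12.81 for SAA2, so reads were divided between features there and the split between these genes is uncertain.

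PTGS2, the inducible cyclooxygenase of prostaglandin synthesis, had 3, 5 and 4 counts in FLAG IL-17 and 0, 0 and 2 in FLAG medium. It had 32, 0 and 14 counts in IgG IL-17 and 0, 24 and 0 in IgG medium. Of its 84 counts, 56 were in the feature-rich IgG IL-17 replicate 1 and IgG medium replicate 2, where it reached 5.96 and 3.92 CPM. FLAG libraries together held 14 PTGS2 counts (0.214 CPM, 0.117 to 0.360) and IgG libraries 70 (1.66 CPM, 1.29 to 2.10). Without the feature-rich libraries FLAG held 14 counts (0.223 CPM, 0.122 to 0.373) and IgG also 14 (0.456 CPM, 0.249 to 0.765), all 14 of these in IgG IL-17 replicate 3. By library the log2(TPM + 1) difference, FLAG minus IgG, was -0.13 (exact permutation within treatment, p = 0.32), and without the feature-rich libraries 0.0037 (exact permutation p = 0.7). For IL-17 minus medium the PTGS2 difference was 0.03 on log2(TPM + 1) (exact permutation within antibody, p = 0.55). On log2(CPM + 1) it was 0.33 (exact permutation p = 0.445).

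**Figure D1:**
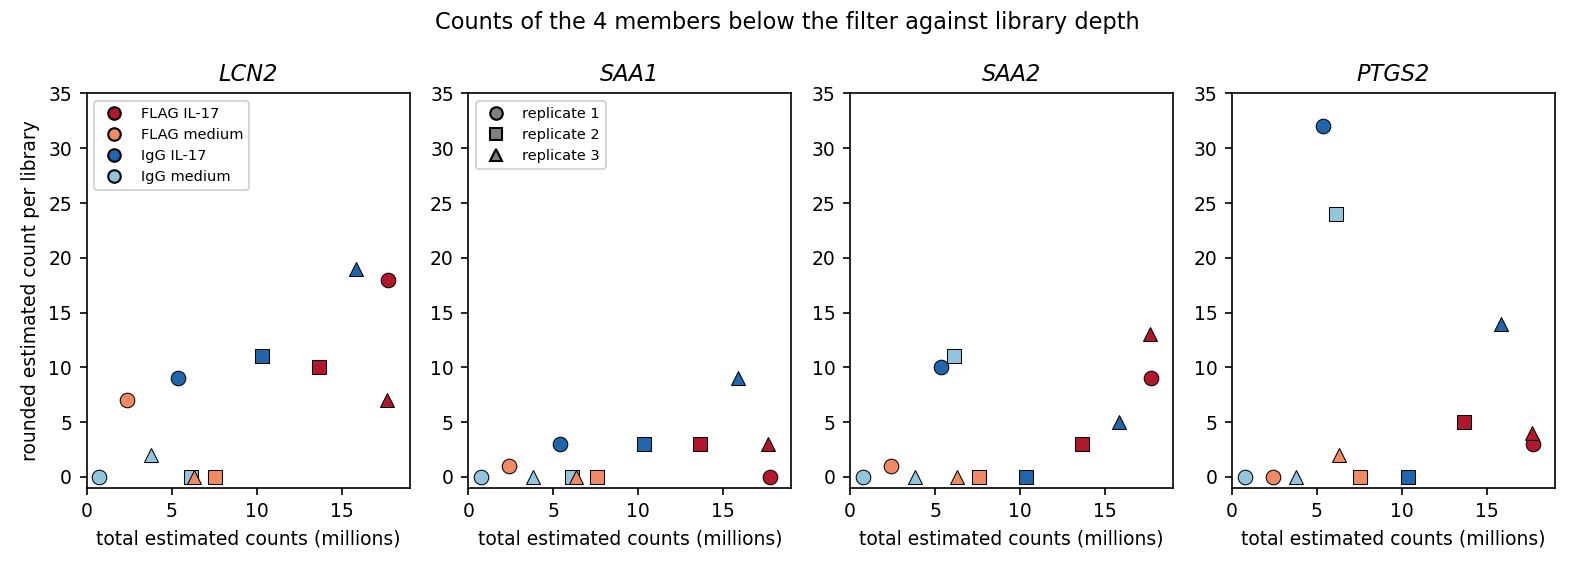
Rounded estimated count of LCN2, SAA1, SAA2 and PTGS2 in each library (vertical axis) against the library's total estimated counts (horizontal axis); colour gives the group and marker shape the replicate. Medium libraries crowd at the shallow end with mostly 0 counts, and the 32 and 24 PTGS2 counts stand apart in IgG IL-17 replicate 1 and IgG medium replicate 2.

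The first question for the 5 abundant members was whether anti-FLAG recovered more of them than IgG. None was called in either treatment: edgeR (quasi-likelihood test, adjusted p under 0.05 over 24040 features) called 0 of the 5 in medium and 0 of the 5 with IL-17, against 0% of all features in both. At an unadjusted p under 0.05 the number was also 0 of 5 in both, although 1002 features above 0 and 576 below 0 passed that mark in medium, and 136 and 540 with IL-17. DESeq2 called 0 of 5 as well, against 0.745% of its features in medium and 0.0386% with IL-17, and gave no member an unadjusted p under 0.05. For the mean of FLAG over IgG in medium and with IL-17, edgeR called 0 of 5 (0% of all features) and DESeq2 0 of 5 (0.161%), again with no member at an unadjusted p under 0.05. Levels below are TMM-scaled CPM, the CPM after correction for library composition on which the fold changes rest.

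C3, the central complement protein, had 27.9, 25.9 and 33.2 TMM-scaled CPM in FLAG IL-17 and 8.87, 25.2 and 20.4 in FLAG medium. It had 23.0, 24.8 and 50.3 in IgG IL-17 and 46.6, 15.2 and 38.2 in IgG medium. FLAG and IgG libraries overlapped under both treatments. The log2 fold change of C3, FLAG over IgG, was -0.83 ± 0.59 (SE) in medium (edgeR adjusted p = 0.921) and -0.17 ± 0.57 with IL-17 (adjusted p = 0.973). Its mean over both was -0.50, with a 95% interval from 0.394-fold to 1.27-fold.

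CFB, complement factor B of the alternative pathway, varied most between libraries. FLAG IL-17 libraries had 16.7, 13.8 and 13.6 TMM-scaled CPM of CFB and FLAG medium libraries 25.5, 11.1 and 7.89. IgG IL-17 libraries had 16.2, 13.5 and 16.0, and IgG medium libraries 2.12, 48.5 and 17.9. The lowest of these, in the shallowest library, was a single count. All 3 feature-rich libraries had more CFB before composition scaling, 24.6 to 70.1 CPM, than any of the other 9, at 1.34 to 18.4 CPM. Its log2 fold change, FLAG over IgG, was -0.72 ± 0.72 (SE) in medium (edgeR adjusted p = 0.989) and -0.05 ± 0.71 with IL-17 (adjusted p = 0.994). The medium value depended on single libraries. Leaving out IgG medium replicate 2 gave 0.61, leaving out FLAG medium replicate 1 gave -1.44, and leaving out the 3 feature-rich libraries gave -0.28.

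ICAM1, an adhesion receptor for leukocyte integrins, had 65.7, 55.2 and 64.4 TMM-scaled CPM in FLAG IL-17 and 51.3, 50.2 and 72.1 in FLAG medium. It had 32.6, 54.7 and 76.8 in IgG IL-17 and 72.1, 34.3 and 99.7 in IgG medium. The FLAG libraries lay inside the range of the IgG libraries under both treatments. The mean log2 fold change of ICAM1 over both treatments, FLAG over IgG, was -0.03 ± 0.37 (SE, edgeR adjusted p close to 1), and its 95% interval ran from 0.577-fold to 1.65-fold.

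SOD2, the mitochondrial manganese superoxide dismutase, had 183.9, 166.5 and 161.9 TMM-scaled CPM in FLAG IL-17 and 83.2, 76.4 and 129.3 in FLAG medium. It had 99.1, 145.7 and 160.4 in IgG IL-17 and 99.6, 67.2 and 163.8 in IgG medium. With IL-17 every FLAG library was above every IgG library, the closest being 161.9 in FLAG and 160.4 in IgG; 14.6% of all tested features lay above in the same way. In unscaled CPM the groups overlapped for SOD2, and 3.58% of features lay above. The log2 fold change of SOD2, FLAG over IgG, was 0.34 ± 0.50 (SE) with IL-17 (edgeR adjusted p = 0.929) and -0.20 ± 0.51 in medium. Averaged, it was 0.07, with a 95% interval from 0.631-fold to 1.75-fold. Estimated counts of SOD2 were not whole in 11 of 12 libraries, so some of its reads were shared with other features. The same held for ICAM1 in 6 libraries, IER3 in 4 and PTGS2 in 1, while all C3 and CFB counts were whole.

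IER3, an immediate early gene linked to cell survival, had 136.9, 157.2 and 183.0 TMM-scaled CPM in FLAG IL-17 and 35.8, 88.5 and 126.2 in FLAG medium. It had 75.6, 127.4 and 150.4 in IgG IL-17 and 91.2, 53.7 and 199.7 in IgG medium. The highest and nearly the lowest library of IER3 were both IgG medium replicates, so this group alone spanned most of the range. The log2 fold change of IER3, FLAG over IgG, was 0.43 ± 0.56 (SE) with IL-17 (edgeR adjusted p = 0.924) and -0.46 ± 0.57 in medium. Its mean was -0.02, with a 95% interval from 0.561-fold to 1.75-fold. Without IgG medium replicate 3 the medium value was 0.22, and without the 3 feature-rich libraries it was -0.44.

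**Figure D2:**
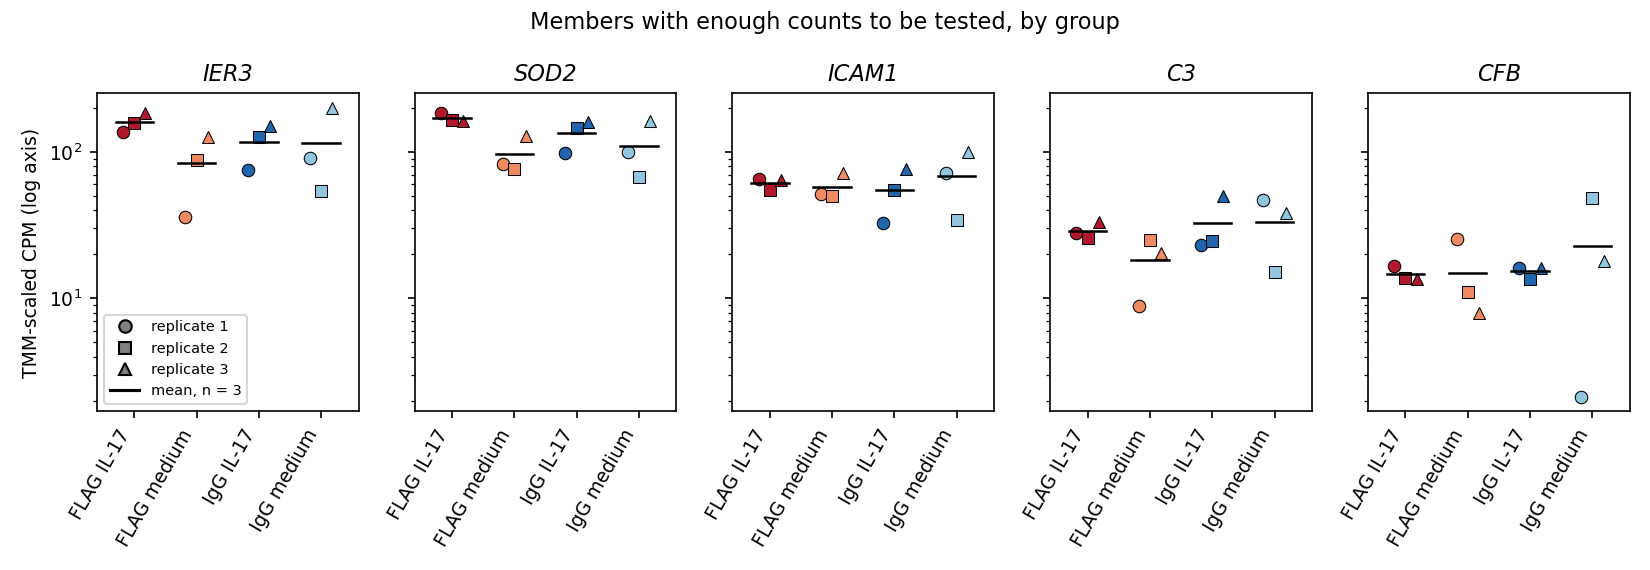
TMM-scaled CPM (vertical log axis) of the 5 abundant members in the 4 groups; each point is a library, its shape the replicate, and each line the mean of 3. FLAG IL-17 libraries lie close together, while IgG medium libraries of CFB run from 2.12 to 48.5 and those of IER3 from 53.7 to 199.7.

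All 5 log2 fold changes, FLAG over IgG, were below 0 in medium, with a median of -0.46 for the members and 0.20 for all tested features. With IL-17, 3 were above 0 and 2 below, with a median of 0.17 for the members and -0.33 for all features. That gap was not stable: with a stricter count filter both medians were -0.01, with 2 members above 0 and 3 below. Without the feature-rich libraries the split was also 2 and 3, with medians of -0.02 for the members and -0.08 for all features. Scaled to library size only, it was again 2 and 3, with medians of -0.0005 and -0.70. The medium direction held in 5 of 5 without the feature-rich libraries (median -0.44), but in 3 of 5 when scaled to library size only (median -0.21) and in 2 of 5 without IgG medium replicate 3, where the median was 0.20. A test of the change of enrichment with IL-17 called 0 of 5 members by edgeR, where 0% of all features were called, and 0 of 5 by DESeq2, where 0.514% were. No member had an unadjusted p under 0.05 by either tool. The change was above 0 for all 5 members, from 0.42 ± 0.74 (SE) for ICAM1 to 0.90 ± 0.80 for IER3 on the log2 scale (edgeR adjusted p = 0.895 and 0.806). With library size scaling, 4 of 5 were above 0 and the members' median was 0.04, against -1.08 for all features. With TMM the members' median was 0.66, against -0.52 for all features. With a stricter count filter these medians were closer, 0.26 for the members and -0.10 for 13278 features. Without IgG medium replicate 3 the members' median was 0.21, with 4 of 5 above 0. The bounds stay wide: for IER3 the 95% interval of this change ran from 0.596-fold to 5.81-fold.

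The next question was whether IL-17 raised the members in either precipitate. In FLAG precipitates edgeR called 0 of the 5, where 0.225% of all features were called, and in IgG precipitates 0 of the 5, where 0.0125% were called. Averaged over both antibodies it called 0 of 5 against 0.395% of all features. DESeq2 called 0 of 5 in each of these comparisons, against 5.35% of its features in FLAG, 1.78% in IgG and 4.25% on average. At an unadjusted p under 0.05, edgeR and DESeq2 found 0 of 5 in each. In FLAG precipitates the log2 fold change, IL-17 over medium, was 0.93 ± 0.57 (SE) for IER3 (edgeR adjusted p = 0.480), 0.83 ± 0.51 for SOD2 (adjusted p = 0.481) and 0.67 ± 0.58 for C3 (adjusted p = 0.582). It was 0.09 ± 0.52 for ICAM1 (adjusted p = 0.940) and -0.0038 ± 0.71 for CFB (adjusted p = 0.998). The CFB value was 0.60 without the feature-rich libraries.

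For C3, SOD2 and IER3 every FLAG IL-17 library was above every FLAG medium library in TMM-scaled CPM. That holds for 17.3% of all tested features and for 3 of these 5. The separation depended on scaling: in unscaled CPM IER3 had 140.0, 132.2 and 112.3 in FLAG IL-17 and 53.7, 118.1 and 121.6 in FLAG medium, which overlap, and 0 of the 5 members were separated, against 3.29% of features. FLAG medium replicate 1, a feature-rich library, had the lowest IER3 and C3 of its group. The median of the 5 log2 fold changes in FLAG was 0.67, against -0.29 for all features. Library size scaling shifted the members' median to 0.07 and the median of all features to -0.92, so the members stood above the median of all features by similar amounts under both. The gap was smaller with a stricter count filter (0.31 for the members, -0.04 for 13278 features). It was also smaller without the feature-rich libraries (0.54 and -0.04).

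In IgG precipitates no direction was shared. The log2 fold change, IL-17 over medium, was 0.29 ± 0.51 (SE) for SOD2, 0.03 ± 0.57 for IER3 and 0.01 ± 0.58 for C3. It was -0.32 ± 0.53 for ICAM1 and -0.67 ± 0.71 for CFB, and every edgeR adjusted p rounded to 1. The CFB value was 0.54 without IgG medium replicate 2, the library with 48.5 TMM-scaled CPM, and 0.34 without the feature-rich libraries, and the IER3 value was 0.67 without IgG medium replicate 3, the library with 199.7. Averaged over antibodies, the 95% intervals reached from 0.884-fold to 2.45-fold for SOD2, from 0.789-fold to 2.46-fold for IER3 and from 0.546-fold to 1.56-fold for ICAM1. An average IL-17 response of ICAM1 above 1.56-fold lay outside its interval under this scaling.

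**Figure D3:**
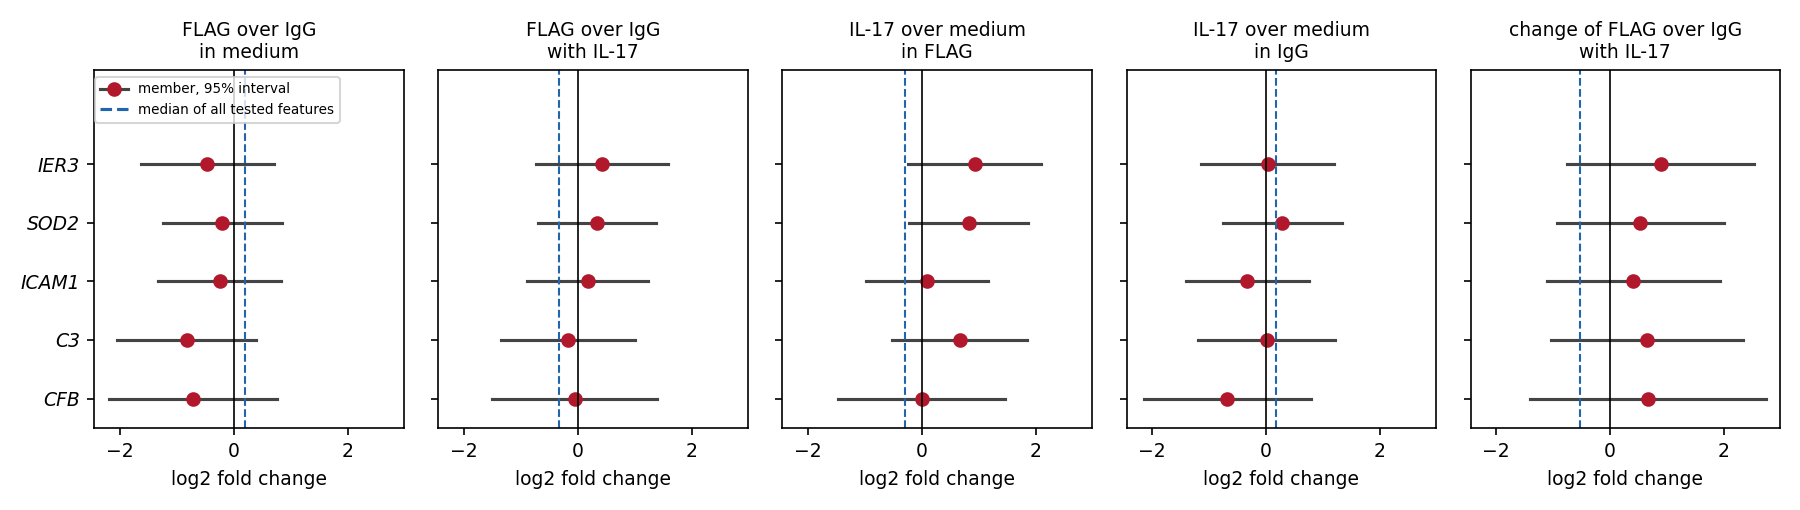
Log2 fold change (horizontal axis) of the 5 abundant members in 5 comparisons; points are edgeR estimates, bars 95% intervals, and the dashed line the median of all 24040 tested features. Every interval drawn contains 0.

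The deposited TPM values gave negative IL-17 differences for every abundant member, including SOD2, IER3 and C3, whose edgeR fold changes were above 0. In limma on log2(TPM + 1), all 5 members had negative differences, IL-17 minus medium, in FLAG and in IgG precipitates, with medians of -0.95 and -1.07, against -0.45 and -0.21 for all features. ICAM1 had 4.70, 2.54 and 1.26 TPM in FLAG IL-17 and 11.4, 11.5 and 5.72 TPM in FLAG medium. These groups do not overlap, as for 24.6% of all tested features, which lay lower with IL-17 in the same way. The TPM of the other 4 abundant members overlapped in FLAG. ICAM1 had 4.70, 1.87 and 2.58 TPM in IgG IL-17 and 3.59, 12.2 and 14.6 TPM in IgG medium, groups that overlap through the shallowest library. Its mean difference over antibodies was -1.42 (limma, unadjusted p = 0.00653, adjusted p = 0.314). In that average limma called 0 of 5 members, against 0.154% of all features, and ICAM1 alone of the 5 had an unadjusted p under 0.05. Of all 24040 features, 2214 lower with IL-17 and 119 higher also passed that mark. The ICAM1 difference in FLAG was -1.51 (limma, unadjusted p = 0.0331, adjusted p = 0.490), where 2172 features lower and 78 higher had an unadjusted p under 0.05.

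TPM divides a fixed sum between all features, and short features took most of it. Features whose ratio of count to TPM (an apparent effective length) was under 0.1 of the library's median held 91.0% to 94.7% of TPM in IL-17 libraries and 76.5% to 91.1% in medium libraries. The other features are longer ones and those under 20 counts or under 0.2 TPM in a library, which were not classed by length. That left 5.26% to 9.01% of TPM for these other features with IL-17, against 8.88% to 23.5% in medium. The part of this difference in the members' TPM was not tested, and neither was the part of library depth in the difference.

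The apparent length also varied within members. For IER3 it stayed between 0.528 and 0.735 of the library median in 12 libraries. For C3 it was 0.105 in IgG medium replicate 2, against 0.461 to 1.17 in the other 11. That library held 33.0 TPM of C3, where the other 11 held 1.49 to 7.90, while its C3 count of 134 (21.9 CPM) was within the range of the others. The C3 value of 33.0 TPM thus came with an ordinary count and a short apparent length.

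**Figure D4:**
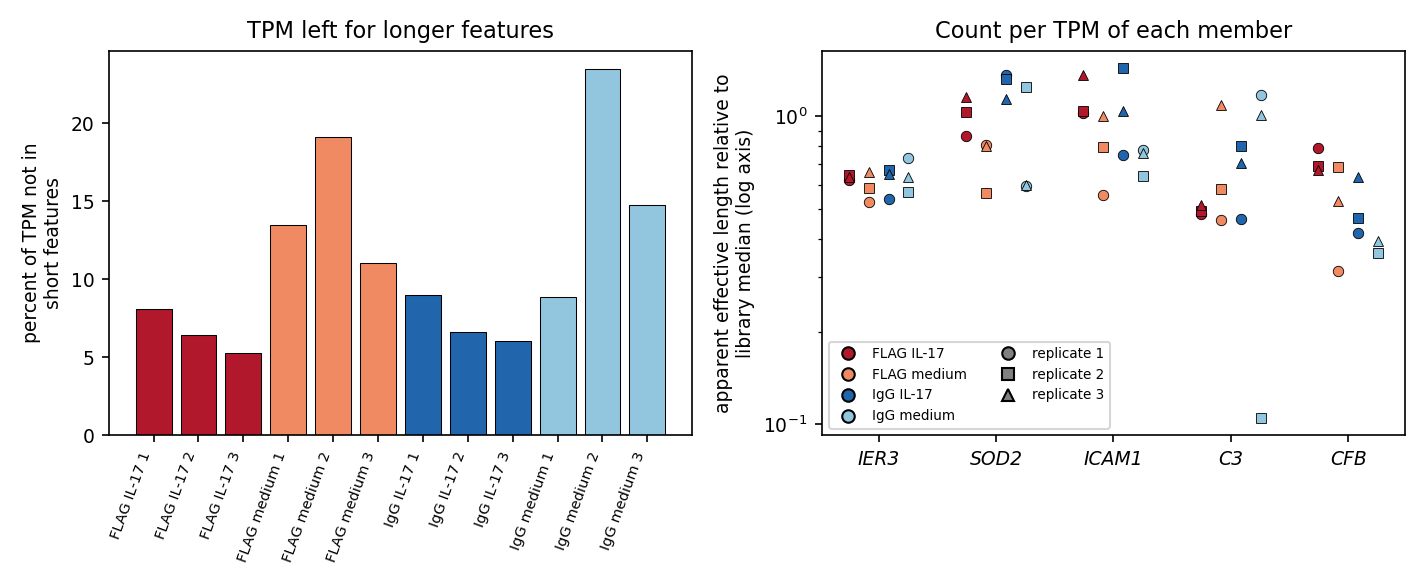
Left, percent of TPM outside short features in each library, with features too low to be classed by length counted as outside. Right, apparent effective length (count per TPM) of the 5 abundant members relative to the library's median feature, on a log axis, with colour for group and shape for replicate; CFB in IgG medium replicate 1, a single count, is not drawn. IL-17 libraries keep 5.26% to 9.01% outside short features, and C3 in IgG medium replicate 2 stands alone at 0.105.

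The abundant members varied together only in part. Over the 12 libraries, which share the cell line, the plasmid and the library kit and differ in depth, the Pearson correlation of log2(CPM + 1) was 0.68 for SOD2 with IER3, 0.50 for SOD2 with ICAM1 and -0.20 for C3 with CFB. In the 9 libraries left without the feature-rich ones it was 0.89 for SOD2 with IER3, 0.89 for CFB with IER3 and 0.85 for CFB with SOD2, where CFB with IER3 was 0.03 over all 12. The single CFB count of the shallowest library is among those 9. Among 12687 features with at least 5 CPM on average, the one most like IER3 was ENSG00000001561.7 (r = 0.98, n = 12) and the one most like CFB was ENSG00000213853.10 (r = 0.98, n = 12). The highest value over so many features is large by selection, and these values are descriptions.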

How the data were processed

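RNA immunoprecipitates of HK2 cells were sequenced in 12 libraries. The submitters' processing notes name STAR 2.7.9, RSEM 1.3.1, DESeq2 1.36.0 and R 4.2.0, with GRCh38 and hg38 as builds. Which step each served is not stated there, and for the annotation and strand setting the sources used here give nothing. Per the labels' protocols, the low-input SMART-Seq v4 kit was used. The deposited estimated counts were rounded to whole numbers. In the authors' second table, whose name says FPKM, the values are TPM, since its columns share one sum, and the log-scale tests are therefore on TPM.

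Features were kept by filterByExpr (minimum count 10), scaled by TMM and fitted over 4 groups of 3 libraries with edgeR 4.0.16 in R 4.3.3 (quasi-likelihood test, Benjamini-Hochberg over 24040 features, called at adjusted p under 0.05). The standard error is the log2 fold change over the root of F. The procedure was run on simulated data with very large planted changes, for IL-17 over medium in FLAG only. That run does not show whether changes as small as those of the members could be found. Members below the filter were compared by exact permutation over libraries within strata. Alternatives used DESeq2 1.42.0, limma 3.58.1, a replicate block, RLE factors, no filter, a stricter count filter, only the groups compared and leaving out each library. Leaving out the feature-rich libraries, library size scaling, and log2(CPM + 1) or log2(TPM + 0.1) for the scarce members were added after seeing the data. Members and lists were chosen with earlier results of these data known. All 9 members are named, and the features most like them are those with the highest correlation. The gene lists and markers could not be matched to identifiers. Of 18 same-numbered pairs of libraries from different groups, 8 had deviations that correlated over 0.1 (range -0.25 to 0.45). Pairs with different numbers ranged from -0.48 to 0.44, so these values do not decide whether the numbers pair libraries. The main fit held no replicate block, and the block was run as an alternative.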

Additional observations from a re-analysis of the deposited data

How the results depend on the processing

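No alternative called a member: over 755 refitted log2 fold changes of the 5 abundant members, the lowest adjusted p was 0.257, from edgeR on only the groups compared. The number of members called was 0 under every alternative, the replicate block included. With that block IER3 in FLAG precipitates, IL-17 over medium, had a log2 fold change of 1.07 (edgeR unadjusted p = 0.0405, adjusted p = 0.371). In that fit 1420 features above 0 and 1691 below 0, of 24040, had an unadjusted p under 0.05. Without IgG medium replicate 3, SOD2 and IER3 had an unadjusted p under 0.05 for the mean IL-17 effect. So did 2139 features above 0 and 2785 below 0, of 29037. CFB passed the same mark for FLAG over IgG in medium without IgG medium replicate 1, as did 904 features above 0 and 775 below 0, of 28890. Signs were less stable, with 119 of the 755 values of the other sign: 49 of 420 when 1 library was left out, 16 of 35 by limma on log2(TPM + 1) and 16 of 35 on log2(TPM + 0.1), but 5 of 35 with RLE factors, 5 of 35 by DESeq2 and 4 of 35 with the replicate block. The cause of these changes was not tested. Over the fits that left out 1 library, the CFB fold change in medium, FLAG over IgG, ran from -1.44 to 0.61. The IL-17 fold change of IER3 in FLAG ran from 0.53 to 0.99 and that of SOD2 from 0.36 to 0.91. Over the other 10 alternatives these ran wider, from -0.43 to 1.07 for IER3 and from -1.05 to 0.89 for SOD2. For each gene 2 of the 10 were of the other sign, and the lowest was from limma on log2(TPM + 0.1). Over the whole table, features called by edgeR and by DESeq2 numbered 54 and 1029 for IL-17 in FLAG, 3 and 318 for IL-17 in IgG, 95 and 723 for the mean IL-17 effect, and 0 and 140, 0 and 9, 0 and 33 and 0 and 108 for FLAG over IgG in medium, with IL-17, on average and for its change. With the replicate block edgeR called 136, 33, 187, 4, 0, 1 and 3 in the same order. When 1 library was left out, edgeR's count ran from 5 to 95 for IL-17 in FLAG, from 2 to 75 in IgG and from 53 to 188 on average, and from 0 to 9 at most for FLAG over IgG and its change. With no filter these 3 IL-17 counts were 228, 69 and 302. For the mean IL-17 effect edgeR called 79 features higher and 16 lower with TMM, 52 and 84 with RLE factors, 70 and 21 with library size only and 53 and 67 with the strict filter, and DESeq2 called 237 and 486. A count of 0 in the shallowest library allows up to 4.02 CPM, above every level of LCN2, SAA1 and SAA2 measured in the other libraries, so it excludes none of those levels.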
